A study of Mus musculus with 3 samples.

Results

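Nuclear receptors are transcription factors that bind DNA, in most cases switched by small lipophilic ligands, and the 43 examined here are members of that superfamily other than the peroxisome proliferator-activated receptors (PPARs). They were chosen by gene symbol from a list of the superfamily, not by their signal, though earlier results of these data were known. All 43 had a probe, among 20142 genes named on the array. In all, 61 probes measured them, with 1 probe for 26 genes and several for 17. Their transcripts were measured in 3T3-L1, a clonal mouse preadipocyte line in wide use, which turns into fat-storing adipocytes once induced with hormones.

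Many nuclear receptors bind DNA as a pair with a retinoid X receptor (RXR), which lets RXR share its partners' target genes, PPAR gamma among them. Steroid receptors act as pairs of themselves, and orphan receptors act without a well-established natural ligand. In fat cells, thyroid hormone, retinoic acid, oxysterol and glucocorticoid receptors govern lipogenesis, differentiation and cholesterol efflux, and the REV-ERB and ROR receptors form a loop of the circadian clock.

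The 3 groups were 3T3-L1 adipocytes taken 2, 8 and 20 days after adipogenic differentiation, 1 Agilent 1-colour array of total RNA each, and the labels describe the last as a long culture. The study addressed adipocyte hypertrophy, in which fat cells grow by storing lipid. All groups are the same unmodified line, and the labels used here name no induction cocktail. With no replicates there is no test and no p-value: each difference compares 2 arrays, and its error is a technical SD, the spread between spots of the same probe on an array, which leaves out the spread between cultures.

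Each array held 43020 non-control spots, with 55.3 to 56.9% of them well above background, a mark set by the scanner software, and 0 saturated. A level below is log2 of the processed signal minus the 75th percentile of that array, whose intensity was 662 on day 2, 636 on day 8 and 927 on day 20. Levels of different probes are not comparable as amounts of RNA. All 8 adipocyte markers checked were well above background on every array, with Adipoq, encoding adiponectin, at 5.07, 8.90 and 8.18 on days 2, 8 and 20. Of the 8, 6 had a higher level on day 20 than on day 2. The 2 lower ones were Fabp4, at 8.40, 8.35 and 7.64, and Cidec, at 7.38, 7.40 and 6.77. The 6 preadipocyte and fibroblast markers were also measured on every array and had a median difference of -0.18 at the first step, day 2 to day 8, and of 1.15 at the second, day 8 to day 20. The adipocyte markers had medians of 0.99 and -0.49 at these steps, with 7 of 8 above 0 at the first and 3 at the second. Their second median was 0.17 when arrays were scaled by spike-in controls. Of 5 macrophage markers with a probe only Csf1r was well above background on any array, while Adgre1, Ptprc, Cx3cr1 and Lyz2 were not. Of 5 endothelial markers, Kdr and Pecam1 were well above background on every array. On days 2, 8 and 20 Kdr was at 2.19, 2.06 and 1.44 and Pecam1 at -3.51, -3.79 and -4.43. Emcn was well above background on day 8 only, and Cdh5 and Tek on no array. Of 4 hepatocyte markers, Alb, Ttr and Apoa1 were not well above background on any array, and Serpina1a was so on days 8 and 20, near the limit at -5.19 and -5.64. Of 5 muscle markers, Acta1 and Des were well above background on every array, while Myod1, Myog and Ckm were so on none. The summed intensity of the list, not scaled between arrays, was 78.8, 799 and 1272 on days 2, 8 and 20. As scaled levels, Acta1 differed by 0.58 and Des by -0.02 from day 8 to day 20.

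The receptors divided into those measured throughout and those not seen. On all 3 arrays 25 of 43 were well above background, against 58.6% of all named genes, 15 were so on no array, against 33.2% of all genes, and the remaining 3, Thrb, Nr3c2 and Rorb, were so on some. Between day 2 and day 8, 4 of 25 measured receptors were at least 2-fold higher (Nr3c1, Rarg, Nr1d2 and Nr1h3), and 13.8% of all measured genes were. Another 2 (Nr2f1 and Vdr) were at least 2-fold lower on day 8, and 12.9% of all genes were. Between day 8 and day 20, 1 of 27 was at least 2-fold higher (Thrb), against 3.58% of genes, and 0 were 2-fold lower, against 1.74%. Over the whole course, from day 2 to day 20, 6 of 25 were at least 2-fold higher (15.5% of genes) and 2 lower (17.0% of genes). Each of these receptor counts is 6 or fewer, and nothing particular to the receptors is read from them. Scaling moved the day 20 counts: with spike-in controls, which set the median of all genes at 0.62 between days 8 and 20 in place of -0.05, 11 receptors were higher at that step. Over the whole course the split of 6 higher and 2 lower was 12 and 0 with spike-in scaling, 8 and 1 with cyclic loess or with the percentile over detected probes, and 7 and 1 with the median of all probes.

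Where 1 of 2 arrays was not well above background, a difference is given as a bound. This is the bright level minus the higher of the dim level and the lowest level well above background on the dim array. A bound takes no account of the technical SD. Of 2 receptors with such a bound from day 2 to day 8, 1 was at least 2-fold higher (25.1% of 1237 genes with a bound). From day 8 to day 20 it was 0 of 1 (8.19% of 769 genes), and from day 2 to day 20 it was 1 of 3 (29.5% of 1288 genes). The median difference of the measured receptors was 0.18 at the first step (-0.06 for all genes), 0.02 at the second (-0.05) and 0.22 over the whole course (-0.14). The later pair of receptor medians turned to -0.11 and -0.06 without a filter on dim probes. As RNA came from whole cultures, fewer cells of a type and less RNA per cell cannot be told apart.

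**Figure D1:**
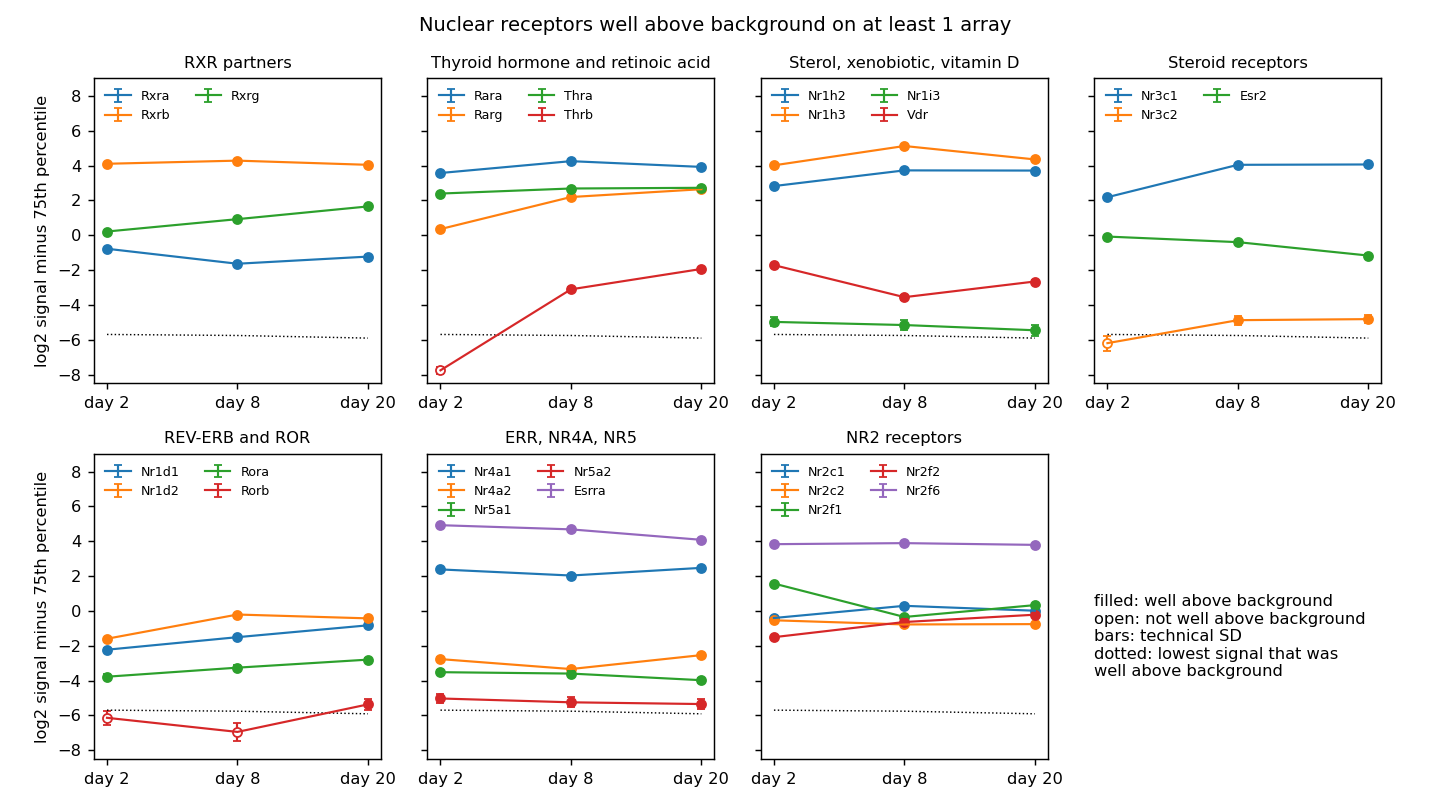
Level of the 28 receptors well above background on at least 1 array, as log2 signal minus the 75th percentile of the array (vertical axis), on days 2, 8 and 20 (1 array each), with technical SD bars that are mostly smaller than the points. Open points were not well above background, and the dotted line is the lowest level that was. Thrb climbs from below that line, at -7.76, to -1.94, and Rxrb, Nr2f6 and Thra stay nearly level.

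The retinoid X receptors are the shared partners of the family. Rxrg, the form with the narrowest tissue range, was higher at both steps by its brighter probe, with levels of 0.21, 0.92 and 1.65 on days 2, 8 and 20. The differences were 0.71 (technical SD 0.072) and 0.73 (SD 0.075), and day 20 was 2.71-fold above day 2. Its other probe, matched to the same RefSeq transcript accession, gave levels of -7.19, 0.14 and 1.61, and was not well above background on day 2. By that probe Rxrg was on day 8 at least 57.0-fold above day 2, and higher again by 1.47 (SD 0.078) on day 20. The probes thus stood close on day 20, with processed intensities of 2901 and 2822, and far apart on day 2, with 765 and 4.54. Their differences from day 8 to day 20 were 0.74 apart, the largest gap among 11 pairs of receptor probes measured on both days. Over 3795 pairs of all genes the median gap was 0.12, and 90.7% were under 0.5. Rxrg is also a gene of skeletal muscle. Of the 5 muscle markers, Acta1 and Des were higher on day 8 than on day 2 by 3.64 and 3.52, and Myod1, Myog and Ckm were not well above background on any array. Their part in the differences of Rxrg was not tested.

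Of 2980 genes whose brighter probe was under 2-fold between day 2 and day 8 and that had another probe, 165 had another probe well above background on only 1 of these days, and 43 had a bound of 2-fold or more. Rxrg alone reached a bound of its size, 1 of the 165. The files give no probe positions, so which exons each Rxrg probe reads was not determined. RefSeq annotates 2 starts for Rxrg, 19903 bases apart, and both promoter windows are shown because the probes of this gene disagree. Each window runs from 250 bases before to 50 after a start, from RefSeq, build GRCm38.p6, 5′ to 3′, with capitals marking AGGTCA, the hexamer most nuclear receptors recognise.
Rxrg, upstream start, chr1:167598112-167598411, plus strand: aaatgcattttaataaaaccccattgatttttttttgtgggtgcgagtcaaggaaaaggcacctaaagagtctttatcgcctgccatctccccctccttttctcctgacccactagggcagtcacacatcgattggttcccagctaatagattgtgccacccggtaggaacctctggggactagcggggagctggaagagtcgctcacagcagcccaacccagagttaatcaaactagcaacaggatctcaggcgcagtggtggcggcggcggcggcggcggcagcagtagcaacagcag
Rxrg, downstream start, chr1:167618015-167618314, plus strand: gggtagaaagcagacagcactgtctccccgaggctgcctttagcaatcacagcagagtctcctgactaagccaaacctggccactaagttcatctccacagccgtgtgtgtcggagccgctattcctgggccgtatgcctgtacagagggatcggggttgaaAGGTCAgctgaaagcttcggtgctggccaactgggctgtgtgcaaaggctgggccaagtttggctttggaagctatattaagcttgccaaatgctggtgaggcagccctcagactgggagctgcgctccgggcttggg

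The downstream window holds 1 AGGTCA on the gene's strand, 88 bases before the start, and the upstream window holds none on either strand. Rxra, the partner of PPAR gamma in most descriptions of adipogenesis, was lowest on day 8, with levels of -0.78, -1.64 and -1.23. Its differences were -0.86 (SD 0.079) from day 2 to day 8 and 0.41 (SD 0.088) from day 8 to day 20, and its other probe gave -1.15 and 0.29. Rxrb, the widely expressed form, stayed between 4.04 and 4.28, with differences of 0.18 and -0.24, the second of which turned positive with cyclic loess and spike-in scaling.

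**Figure D2:**
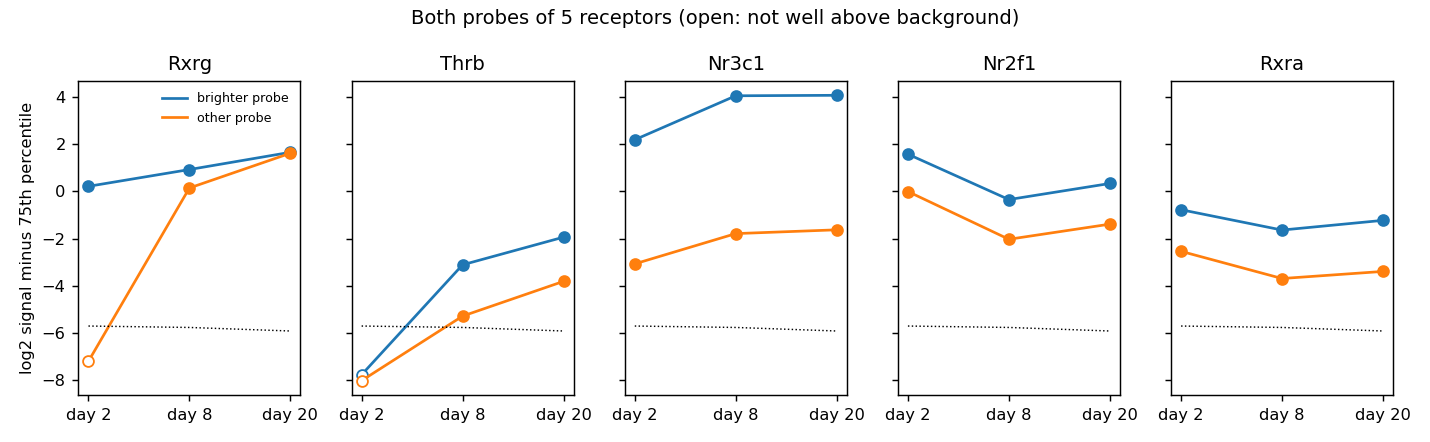
Level of each of the 2 probes of Rxrg, Thrb, Nr3c1, Nr2f1 and Rxra (vertical axis, log2 signal minus the 75th percentile) on days 2, 8 and 20, 1 array each. The probes of Nr3c1, Nr2f1, Rxra and Thrb run the same way at the first step, whereas those of Rxrg start at 0.21 and -7.19 on day 2 and meet at 1.65 and 1.61 on day 20.

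Thrb, encoding the thyroid hormone receptor beta, had the largest bound of the brighter probes. Its levels were -7.76, -3.11 and -1.94, the first not well above background. Its bound over day 2 was 6.02-fold on day 8 and 13.5-fold on day 20. From day 8 to day 20, where both arrays measured it, the difference was 1.17 (SD 0.141), a 2.24-fold higher signal, which was 0.55 with normexp background correction. The other probe of Thrb had the same order, with levels of -8.01, -5.28 and -3.81. Its bounds over day 2 were 1.33-fold (0.41, SD 0.332) and 3.70-fold (1.89, SD 0.195). From day 8 to day 20 its difference was 1.47 (SD 0.327). Thra, the receptor alpha gene, had levels of 2.39, 2.68 and 2.72, with differences of 0.29 (SD 0.075) and 0.04 (SD 0.079). The second turned to -0.06 over the mean of its 2 probes.

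Thrb also has 2 annotated starts in RefSeq, and their windows are shown because this receptor became measurable during the course. Capitals mark AGGTCA in the first and the E-box CACGTG, the site of clock and other basic helix-loop-helix factors, in the second.
Thrb, first start, chr14:17660710-17661009, plus strand: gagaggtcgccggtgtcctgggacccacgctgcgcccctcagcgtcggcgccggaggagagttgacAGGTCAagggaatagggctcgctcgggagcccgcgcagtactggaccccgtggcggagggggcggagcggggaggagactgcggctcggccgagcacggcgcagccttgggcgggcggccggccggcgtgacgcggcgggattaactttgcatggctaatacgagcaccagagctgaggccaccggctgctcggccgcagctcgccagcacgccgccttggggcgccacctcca
Thrb, second start, chr14:17981394-17981693, plus strand: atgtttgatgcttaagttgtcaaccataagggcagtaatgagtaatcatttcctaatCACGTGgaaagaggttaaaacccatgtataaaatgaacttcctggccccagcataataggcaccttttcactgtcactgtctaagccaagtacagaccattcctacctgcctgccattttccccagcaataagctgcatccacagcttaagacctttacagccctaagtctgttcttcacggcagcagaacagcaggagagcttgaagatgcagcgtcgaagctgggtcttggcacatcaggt

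Among retinoic acid receptors, Rarg, encoding receptor gamma, was higher at each step. Its levels were 0.35, 2.19 and 2.64, with differences of 1.84 (SD 0.073) and 0.45 (SD 0.078), so that day 20 was 4.87-fold above day 2. Rara, encoding receptor alpha, was highest on day 8, at 3.57, 4.25 and 3.92, and its other probe had the same order at 0.79, 1.59 and 1.37. Its second difference of -0.33 turned to 0.33 with spike-in scaling. Rarb, encoding receptor beta and itself a well-known retinoic acid target, was not well above background on any array.

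The liver X receptors sense oxysterols and turn on cholesterol efflux and lipogenic genes. Nr1h3, encoding LXR alpha, had levels of 4.01, 5.12 and 4.35, highest on day 8. It was 2.16-fold higher on day 8 than on day 2 (1.11, SD 0.069) and lower again by -0.78 (SD 0.074) on day 20, and its other probe gave 1.03 and -0.92. With spike-in scaling the second difference shrank to -0.11. Nr1h2, encoding LXR beta, was at 2.82, 3.72 and 3.71, a difference of 0.90 (SD 0.073) at the first step and of -0.01 at the second, which changed sign under 6 of 10 alternative settings.

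Vdr, the vitamin D receptor, which restrains adipogenesis when activated early, was lowest on day 8. Its levels of -1.72, -3.56 and -2.66 give a 3.58-fold lower signal on day 8 than on day 2 (-1.84, SD 0.151) and a difference of 0.91 (SD 0.163) from day 8 to day 20. These were -1.05 and 0.38 with normexp. Nr1i3, the xenobiotic receptor CAR, was well above background by 1 of its 2 probes, close to the limit of detection at -4.98, -5.16 and -5.46, and its differences of -0.17 and -0.30 lay within 1 technical SD (0.389 and 0.418). The bile acid receptor gene Nr1h4 and the xenobiotic receptor gene Nr1i2 were not well above background on any array.

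Of the steroid receptors, Nr3c1, the glucocorticoid receptor and target of the dexamethasone in common induction cocktails, was higher after day 2. Its levels were 2.18, 4.04 and 4.06, a 3.64-fold higher signal on day 8 than on day 2 (1.87, SD 0.073) with 0.01 (SD 0.075) from day 8 to day 20. The other probe gave 1.28 (SD 0.125) and 0.16. Nr3c2, the mineralocorticoid receptor, was dim, with levels of -6.20, -4.88 and -4.82, the first not well above background. Its bounds over day 2 were 1.76-fold on day 8 (0.81, SD 0.498) and 1.84-fold on day 20 (0.88, SD 0.486). Esr2, encoding estrogen receptor beta, was at -0.08, -0.40 and -1.17, which is 2.12-fold lower on day 20 than on day 2 (-1.09, SD 0.082), a difference that fell under 2-fold in 5 of 10 alternative settings and to -0.40 with spike-in scaling. Esr1, the estrogen receptor alpha gene, with 3 probes, and Pgr, the progesterone receptor gene, were not well above background on any array.

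The REV-ERB receptors, which repress the clock gene Arntl through sites they share with the ROR activators, were both higher after day 2. Nr1d1, encoding REV-ERB alpha, was at -2.23, -1.51 and -0.83, gaining 0.72 (SD 0.097) and 0.68 (SD 0.086), and was 2.64-fold higher on day 20 than on day 2, a difference of 1.40 that was 0.98, under 2-fold, with normexp. Nr1d2, encoding REV-ERB beta, was at -1.60, -0.21 and -0.43, so its difference lay at the first step, 1.39 (SD 0.082) or 2.62-fold, with -0.22 (SD 0.085) at the second. That second value turned to 0.45 with spike-in scaling. Rora was at -3.78, -3.26 and -2.80, a difference of 0.98 (SD 0.158) from day 2 to day 20 that was 0.38 with normexp. Rorb was well above background on day 20 only, at -5.37. Its bound over day 8 was 1.31-fold (0.39), less than 1 technical SD of 0.609. The labels give no hour of harvest. Nr1d1 and Thra lie in opposite orientation and share 1075 bases at their ends in RefSeq, and each probe was matched to the accession of its own gene.

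The windows at the starts of both REV-ERB genes are shown because their differences from day 2 to day 20 were alike in size, 1.40 and 1.17. Capitals mark AGGTCA. The E-box CACGTG, the D-box TTATGTAA and TAGGTCA, the core of the site shared by REV-ERB and ROR, were searched on both strands and are absent from both windows.
Nr1d1, chr11:98775328-98775627, minus strand: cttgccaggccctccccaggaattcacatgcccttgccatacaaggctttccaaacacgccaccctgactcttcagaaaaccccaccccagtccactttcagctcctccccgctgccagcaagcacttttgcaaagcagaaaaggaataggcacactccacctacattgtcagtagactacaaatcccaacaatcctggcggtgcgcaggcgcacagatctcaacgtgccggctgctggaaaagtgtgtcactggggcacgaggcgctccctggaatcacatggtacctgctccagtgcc
Nr1d2, chr14:18239057-18239356, minus strand: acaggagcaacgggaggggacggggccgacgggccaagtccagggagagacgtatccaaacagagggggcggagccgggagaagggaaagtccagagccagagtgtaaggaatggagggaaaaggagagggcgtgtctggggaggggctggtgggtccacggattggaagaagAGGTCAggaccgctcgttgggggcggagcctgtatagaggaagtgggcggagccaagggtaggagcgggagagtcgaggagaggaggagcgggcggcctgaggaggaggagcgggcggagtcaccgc

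Nr1d2 has 1 AGGTCA, 77 bases before the start, and Nr1d1 has none in this window. Over all 32851 RefSeq windows of the same length, 16.3% hold the nuclear receptor hexamer and 7.15% the E-box. Among the 58 windows of the 39 receptor genes in the table, 17.2% hold the hexamer and 10.3% the E-box. The core shared by REV-ERB and ROR, which contains the hexamer, was in 0 of the 58 windows against 2.61% of all, the cyclic AMP element TGACGTCA in 2 of 58 against 1.79%, the D-box in 0 against 0.938%, and the palindrome bound by the glucocorticoid receptor in 0 against 3 of 32851 windows. The receptors' windows thus held the hexamer about as often as other genes' did.

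The COUP transcription factors are orphan receptors of undifferentiated mesenchyme. Nr2f1, encoding COUP-TF1, was lowest on day 8. Its levels of 1.57, -0.35 and 0.33 put day 8 3.79-fold below day 2 (-1.92, SD 0.077), with 0.68 (SD 0.081) from day 8 to day 20, and its other probe gave -2.01 and 0.64. Day 20 was 2.36-fold below day 2 (-1.24, SD 0.074), a difference of -0.55 with spike-in scaling. Nr2f2, encoding COUP-TF2, ran the other way at the first step, with levels of -1.51, -0.64 and -0.22, differences of 0.87 (SD 0.081) and 0.42 (SD 0.084), and a 2.44-fold higher signal on day 20 than on day 2, which fell just under 2-fold with normexp. Nr2f6 stayed between 3.79 and 3.89. The testicular receptor genes stayed under 2-fold, Nr2c1 at -0.41, 0.29 and 0.01 and Nr2c2 at -0.54, -0.78 and -0.76. Beside the differences of Nr2f1, Nr2f2, Vdr and Rxra from day 8 to day 20, 6 of 6 preadipocyte and fibroblast markers were higher on day 20, 3 of them at least 2-fold. Of all 12321 measured genes 5529 were above 0 at this step, and 3.58% were at least 2-fold higher. Dlk1, the preadipocyte inhibitor of differentiation, was at 5.47, 5.02 and 6.49. The summed processed intensity of these markers, not scaled between arrays, was 44910, 40240 and 141100 on days 2, 8 and 20. The day 20 array was the brighter one, with a 75th percentile of 927 against 636 on day 8, so these sums overstate the scaled difference. Their part in the receptors' differences was not tested.

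Esrra, encoding the estrogen-related receptor alpha that drives mitochondrial genes, was lower at each step, at 4.92, 4.68 and 4.08. The differences were -0.24 (SD 0.067) and -0.60 (SD 0.075), and the second turned to 0.06 with spike-in scaling. Its relatives Esrrb and Esrrg were not well above background on any array. The NR4A receptors are immediate early genes of cyclic AMP and stress signals. Nr4a1 was at 2.38, 2.03 and 2.47 and Nr4a2 at -2.77, -3.34 and -2.54, both lowest on day 8, and Nr4a3 was not well above background on any array. The second step of Nr4a2 was 0.79 (SD 0.154) on one probe and 0.86 on the other, but 0.31 with normexp. Nr5a1, known from steroid-producing glands, was dim at -3.52, -3.60 and -3.98, and Nr5a2 was well above background by 1 of its 2 probes, at -5.03, -5.25 and -5.35, with differences from day 2 to day 20 of -0.46 (SD 0.194) and -0.32 (SD 0.398).

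The 15 receptors not well above background on any array were Nr0b1, Nr0b2, Nr1h4, Nr1i2, Nr2e1, Nr2e3, Nr4a3, Nr6a1, Rarb, Esr1, Esrrb, Esrrg, Pgr, Hnf4a and Hnf4g. Their processed intensities ran from 2.70 to 14.7, where the lowest signal well above background was 12.8, 11.7 and 15.4 on days 2, 8 and 20. Several belong to liver (Hnf4a, Nr1h4, Nr0b2, Nr1i2) or to retina and neural tissue (Nr2e3, Nr2e1). No difference is given for these genes, and their transcripts may be present below what these spots can show.

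By course, 2 of the 25 receptors measured on all arrays (Rxrg and Nr1d1) were higher by 0.5 or more at both steps, as were 4.12% of all genes, and 3 (Nr2f1, Vdr and Nr4a2) were lower by 0.5 or more on day 8 and higher by as much on day 20, as were 2.89%. Nr1h3 was the only one that was higher on day 8 and lower on day 20 by 0.5 or more, as were 3.04% of all genes, and 0 were lower by that much at both steps, as were 3.20%. The limit of 0.5 was chosen after the values were seen, and with so few receptors these shares are descriptions only.

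**Figure D3:**
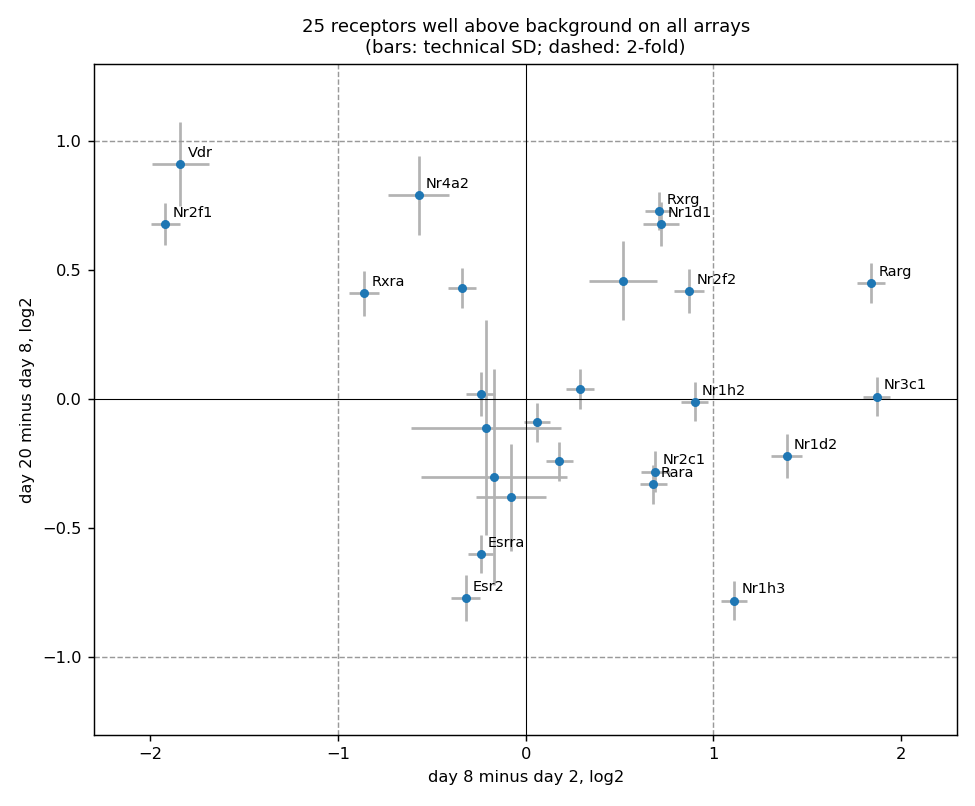
Log2 difference from day 8 to day 20 (vertical axis) against that from day 2 to day 8 (horizontal axis) for the 25 receptors well above background on all arrays, 1 array per day, with technical SD bars and dashed lines at 2-fold. Nr3c1 and Rarg lie farthest right at 1.87 and 1.84, Nr2f1 and Vdr farthest left at -1.92 and -1.84, and no point passes 2-fold on the vertical axis.

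Genes known as targets of these receptors were followed as lists. These and the lists below were drawn up with earlier results of these data known, and some genes are in several of them. Their counts are set beside the shares of all genes as descriptions only. Among LXR targets, 6 of 11 measured were at least 2-fold higher on day 8 than on day 2 and 0 lower, where 13.8% of all genes were higher and 12.9% lower, with a median of 1.17 against -0.06 for all genes. Abcg1, which exports cholesterol, was higher by 3.32, Scd1, a fatty acid desaturase, by 2.45, Mylip, which degrades the LDL receptor, by 1.82 and Apoe, the lipoprotein component, by 1.46. From day 8 to day 20 none of 12 passed 2-fold, where 3.58% of all genes were higher and 1.74% lower. The median was -0.05, which turned positive under 5 of 10 alternative settings. The adipocyte markers, which share Lpl with the LXR list, had a first-step median of 0.99. Of these 8 markers 4 passed 2-fold upward at that step and 0 downward. Whether the LXR targets differed from adipocyte genes in general was not tested. Of 7 measured retinoic acid targets, 4 were higher and 2 lower on day 8, against 13.8% and 12.9% of all genes (median 2.46, and 0.21 if dim probes are kept). Tgm2 was higher by 4.84, Rarres2 by 3.95 and Cyp26b1, which degrades retinoic acid, by 2.46, while Dhrs3 was at -2.06 and Crabp2 at -1.42.

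Thyroid hormone targets had 3 of 9 higher and 1 lower on day 8, against 13.8% and 12.9% of all genes, and a median of 0.56 against -0.06. Thrsp was higher by 5.48, Acaca, the acetyl-CoA carboxylase of lipogenesis, by 1.40, and Hr, a thyroid-responsive corepressor, by 2.22 and again by 1.89 from day 8 to day 20. Dio1, which activates thyroid hormone, was lower by -1.65 and at least 2.09-fold lower again on day 20. Of 16 glucocorticoid receptor targets, 13 were below 0 on day 8 where Nr3c1 was higher, 5 of them at least 2-fold, and 2 were at least 2-fold higher, with a median of -0.70. Of all 12045 genes 6455 were below 0 at this step, 12.9% were at least 2-fold lower and 13.8% higher. Lcn2 was at -6.42, Fkbp5, a chaperone that restrains the receptor, at -3.53 and Sgk1 at -2.33, against Sult1a1 at 6.53. Of 9 receptor chaperones 3 were lower and 0 higher, where 12.9% of all genes were lower and 13.8% higher. The 3 were Fkbp5, Ptges3 at -1.33 and Stip1 at -1.24.

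Shared targets of REV-ERB and ROR had 0 of 6 measured genes higher and 2 lower on day 8 (13.8% and 12.9% of all genes), Clock at -1.39 and E2f8 at -4.83, with a median of -0.65. E2f8 is also a cell cycle gene. Of 2 targets with a bound at this step, Elovl3 was at least 10.3-fold lower and Bhlhe41 at least 1.87-fold higher. From day 8 to day 20 all 7 measured targets were above 0, as were 5529 of 12321 genes, with a median of 0.43 that was 0.06 with normexp and 1.09 with spike-in scaling. Of these, E2f8 passed 2-fold at 1.45, as did 3.58% of all genes, and Arntl was at 0.80. Genes of the clock output that share regulation with Nr1d1 had 5 of 8 higher and 0 lower on day 8, against 13.8% and 12.9% of all genes (median 1.47), led by Dbp at 4.74, Bhlhe40 at 2.37, Per3 at 2.31 and Tef at 1.73. Per1 was at 0.03 and Per2 at 0.15. ERR targets had 0 of 11 higher on day 8, against 13.8% of all genes, and 1 lower, Idh3a at -1.46, near the share of 12.9%. Their median was 0.16, then -0.32 from day 8 to day 20, which turned positive with quantile normalization, cyclic loess and spike-in scaling. Of 10 cyclic AMP-responsive immediate early genes, a list that holds Nr4a1, 2 were lower on day 8, against 12.9% of all genes, Pde4b at -2.92 and Junb at -1.04. Fos, at 0.06, was under 2-fold.

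**Figure D4:**
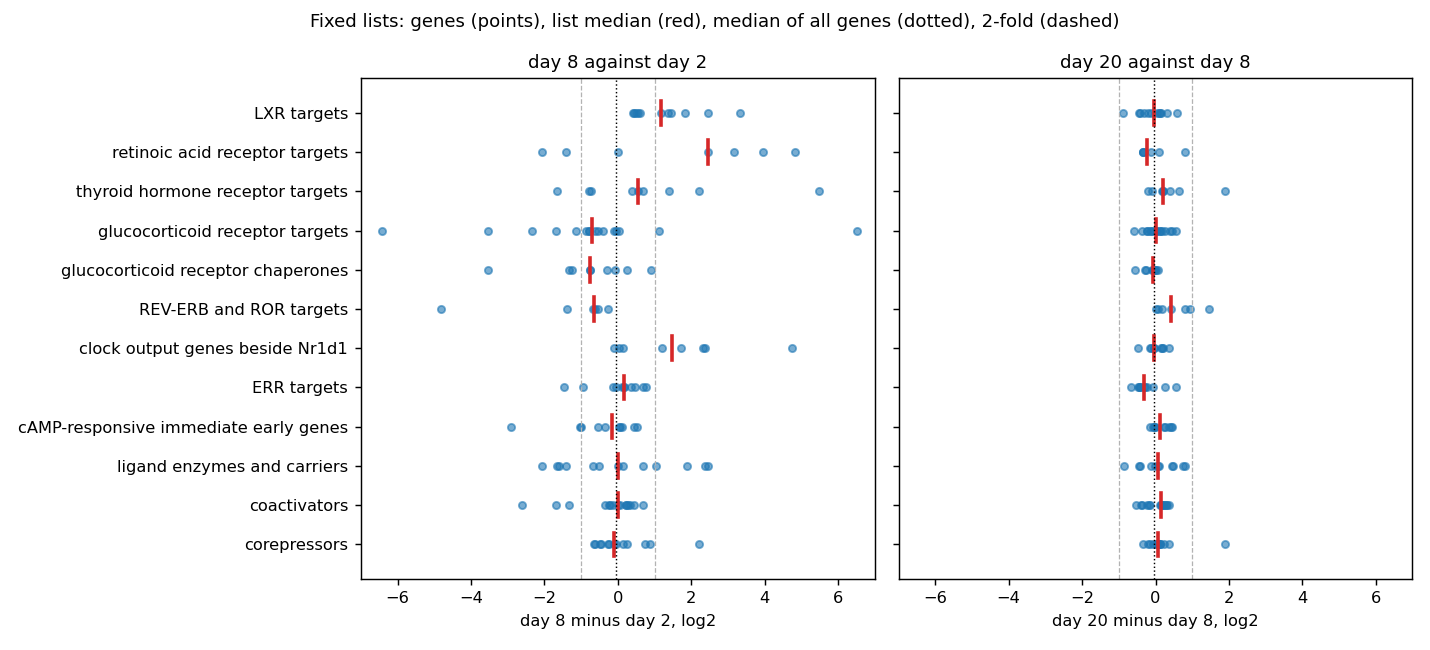
Log2 difference of each measured gene (points) in 12 lists, from day 2 to day 8 (left) and from day 8 to day 20 (right), with the list median in red, the median of all genes dotted and 2-fold dashed, 1 array per day. At the first step the medians run from -0.75 for glucocorticoid receptor chaperones to 2.46 for retinoic acid targets, and at the second all lie between -0.32 and 0.43.

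Receptor cofactors mostly stayed under 2-fold. Of 15 measured coactivators 3 were lower on day 8 and 0 higher, against 12.9% and 13.8% of all genes: Ncoa7 at -2.61, Pprc1 at -1.69 and Prmt1, an arginine methyltransferase, at -1.33. The steroid receptor coactivators Ncoa1, Ncoa2 and Ncoa3 were at 0.07, 0.23 and -0.25. Of 13 corepressors Hr alone passed 2-fold on day 8 and was higher, where 13.8% of all genes were higher and 12.9% lower. Nrip1, a corepressor of energy expenditure in fat, was at 0.87 and Ncor1 at 0.15.

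Among enzymes and carriers of ligands, 4 of 13 were higher and 4 lower on day 8, against 13.8% and 12.9% of all genes. Of these, Cyp26b1, Dhrs3, Crabp2 and Dio1 were already counted in the target lists above. Hsd11b1, which regenerates active glucocorticoid within the cell, had levels of 4.59, 6.49 and 5.62, a difference of 1.89 at the first step and of -0.87 at the second. Aldh1a7 was higher by 2.37 and Cyp26b1 by 2.46, and Dhrs3, which reduces retinaldehyde, and Rdh10, which forms it, were at -2.06 and -1.59. For comparison, Pparg was at 4.46, 6.17 and 6.02, Ppard at 1.24, 2.21 and 2.22, and Ppara at -2.72, -2.87 and -2.89. Pparg, by 1.71, was the 1 of these 3 past 2-fold at the first step, where 13.8% of all genes were higher and 12.9% lower. At the second step 0 passed it, where 3.58% of all genes were higher and 1.74% lower.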

How the data were processed

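Total RNA of 3 cultures was hybridised to 1 Agilent array each and read with Feature Extraction, version 10.7.1.1, the scanner software of Agilent, as the submitters' processing notes state. The deposited intensity values are background-corrected by that software and not scaled between arrays, per the file headers. Deposited columns marked other are yes or no marks for controls, detection, saturation and outliers. The authors' deposited series table holds log2 values that match log2 of each array's processed signal plus a constant (-9.37, -9.31 and -9.86; 100% of probes within 0.01), with column medians of -4.80, -4.69 and -4.89, so their scale, centring and direction are known.

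Spots with outlier flags were left out, spots of a probe averaged in log2 and the 75th percentile over 39429 probes subtracted. By RefSeq accession without version, 26581 probes were named from a table of GRCm38.p6, and 12848 were not. The array was designed on mm9, per the file headers, so no probe coordinates are given. Each gene was read from its brightest probe, by mean level. The technical SD came from probes with 8 or more spots on an array, in 10 bins of signal. The calculations were tested on simulated data. Alternatives were quantile normalization, cyclic loess, normexp with an offset of 50 (limma 3.58.1 in R 4.3.3), other centrings, the series table, other filters on dim probes and the mean over probes. Normexp was run on median spot signals, in place of the planned mean signals. The receptors, lists and named genes were chosen with earlier results of these data known: every receptor is accounted for, with its values where it was at least 2-fold apart in any pair of days or its probes disagreed, and others were added after their values were seen. Of each pathway list up to 4 genes past 2-fold between neighbouring days are named, and further genes were chosen after their values were seen. One gene that this rule would name is not reported here. Replicates are absent, so no test was made, and the number of arrays limits the precision. Sts and Cd68 had no named probe.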

Additional observations from a re-analysis of the deposited data

How the results depend on the processing

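The number of receptors at least 2-fold apart was 6 at the first step, 1 at the second and 8 over the whole course. No called difference changed sign under the 10 alternatives. Of these 10, the series table and the filters on dim probes cannot move a measured difference, and the mean over probes cannot move a gene with 1 probe. From day 2 to day 8 the count was 10 without a filter on dim probes (7 higher), and 1 receptor was lower when signals in the lower quartile were left out, since Vdr was then not measured on day 8.

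From day 8 to day 20 the count, all higher, was 2 with cyclic loess, 2 with centring on the median of all probes, 2 over the mean of a gene's probes and 0 with normexp. It was 11 with spike-in scaling, where the all-gene median was 0.62 against -0.05. Without a filter on dim probes it was 7, of which 3 were higher and 4 lower, and 15 receptors not well above background on either day entered. From day 2 to day 20 the split of 6 higher and 2 lower became 12 and 0 with spike-in scaling (all-gene median 0.55 against -0.14), 8 and 1 with cyclic loess, 7 and 1 with the median of all probes, 8 and 1 with the percentile over detected probes and 4 and 1, 5 in all, with normexp. It was 14 in all without a filter, of which 5 were lower. Spike-in scaling and the other centrings take 1 constant off each array, so they move every measured difference of a step by the same amount. Why these constants differ, and what moved the counts with cyclic loess and normexp, was not tested. Over all genes, the share of 2-fold calls that were higher from day 8 to day 20 was 67.3%, but 83.0% with cyclic loess, 83.9% with the median of all probes and 99.0% with spike-in scaling. From day 2 to day 20 it was 47.7%, but 65.0%, 53.4% and 84.5%, and 59.8% with the percentile over detected probes.

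Under the alternatives 469 receptor differences moved by no more than 1 technical SD and 285 by more, and 604 list medians moved by no more than the SD over their members and 31 by more. Part of the 469 was fixed in advance, since the mean over probes cannot move the 26 receptors with 1 probe. The series table and the filters on dim probes cannot move any measured difference. The series table cannot move a list median either. Signal over background limits Nr1i3, Nr3c2, Nr5a2 and Rorb most, which lie near the lowest level well above background. No paired analysis was possible because each day has 1 array.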
